A study of Mus musculus with 4 samples.

Results

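The Cdh13 region is a stretch of mouse chromosome 8, chr8:120550000-121900000 in build mm9, that was drawn to hold the gene Cdh13 with its flanks. Its members are the H3K27ac HiChIP interactions with at least 1 anchor overlapping it by 1 bp. There were 75 such interactions among the 8278 listed for somatostatin (SST) interneurons and 0 among the 6733 listed for vasoactive intestinal peptide (VIP) interneurons, that is, 75 of 15011 in all. The region was chosen by its numbers of SST and VIP interactions, which differ there, so these counts describe it and are not tested. Its internal arrangement was not used to choose it, but it is read from the same 75 interactions.

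The nuclei came from the cortex of adult mice of C57BL/6 background that carried Sst-cre or Vip-cre together with the Sun1 nuclear tag, which is switched on where the Cre is active. Each group therefore holds the nuclei that the driver has marked, and how pure the captured nuclei were is not stated in the labels. HiChIP joins pieces of chromatin that lie close together in the nucleus and then keeps those bearing a chosen mark, here H3K27ac, the acetylation found at active promoters and enhancers; each listed interaction links a pair of such stretches, called anchors. Of 4 labelled samples, 2 per cell type, 1 list per cell type was analysed, attached to replicate 1, so no value below has a spread between animals.

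Cdh13 encodes T-cadherin, an atypical cadherin that is held to the cell surface by a GPI anchor and lacks the transmembrane and cytoplasmic parts by which classical cadherins reach the cytoskeleton. In the nervous system it is known as a regulator of neurite growth and axon guidance and as a protein of inhibitory synapses. Outside the brain it is known as a receptor for adiponectin and low-density lipoprotein. In the RefSeq gene table of assembly GRCm38.p6, the protein-coding neighbours of Cdh13 are Mphosph6, which encodes an RNA exosome-associated protein, on the side of lower coordinates and Hsbp1, which encodes heat shock factor binding protein, on the other. The table places 4 genes inside Cdh13 and none of them codes for a protein: the long non-coding RNA genes Gm51555 and Gm31893, the small nuclear RNA gene Gm24035 and the pseudogene Gm22999. This table is of another build than the interactions, so anchors were not assigned to genes, and neither the position of Cdh13 in the region nor the cell type markers were checked. Which anchor, if any, holds a Cdh13 promoter was therefore not determined.

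In the SST list, which held no interaction longer than 1 Mb, the region was a closed network of long contacts. Its 75 interactions (Poisson interval 59.0 to 94.0) joined 27 anchors, and every member had both of its anchors in the region. All 27 anchors belonged to 1 connected network. The members made up 14.9% (11.9 to 18.3%) of the 505 SST interactions on chromosome 8. Per 1000 interactions of a list there were 9.06 in SST and none in VIP. A count of 0 in a list was set to a limit of 3 interactions, here 0.446 per 1000 for VIP. Against this limit the SST value was at least 20.3-fold higher, a bound that takes the 75 SST interactions as exact. On the rest of chromosome 8 there were 430 SST and 465 VIP interactions, a ratio of 0.925 (0.809 to 1.06). Intervals here and below are exact 95% intervals that cover counting error only and treat interactions, which share anchors, as independent. A contact that is missing from a list may still exist below the threshold of the caller, and the depth behind each list is unknown.

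**Figure D1:**
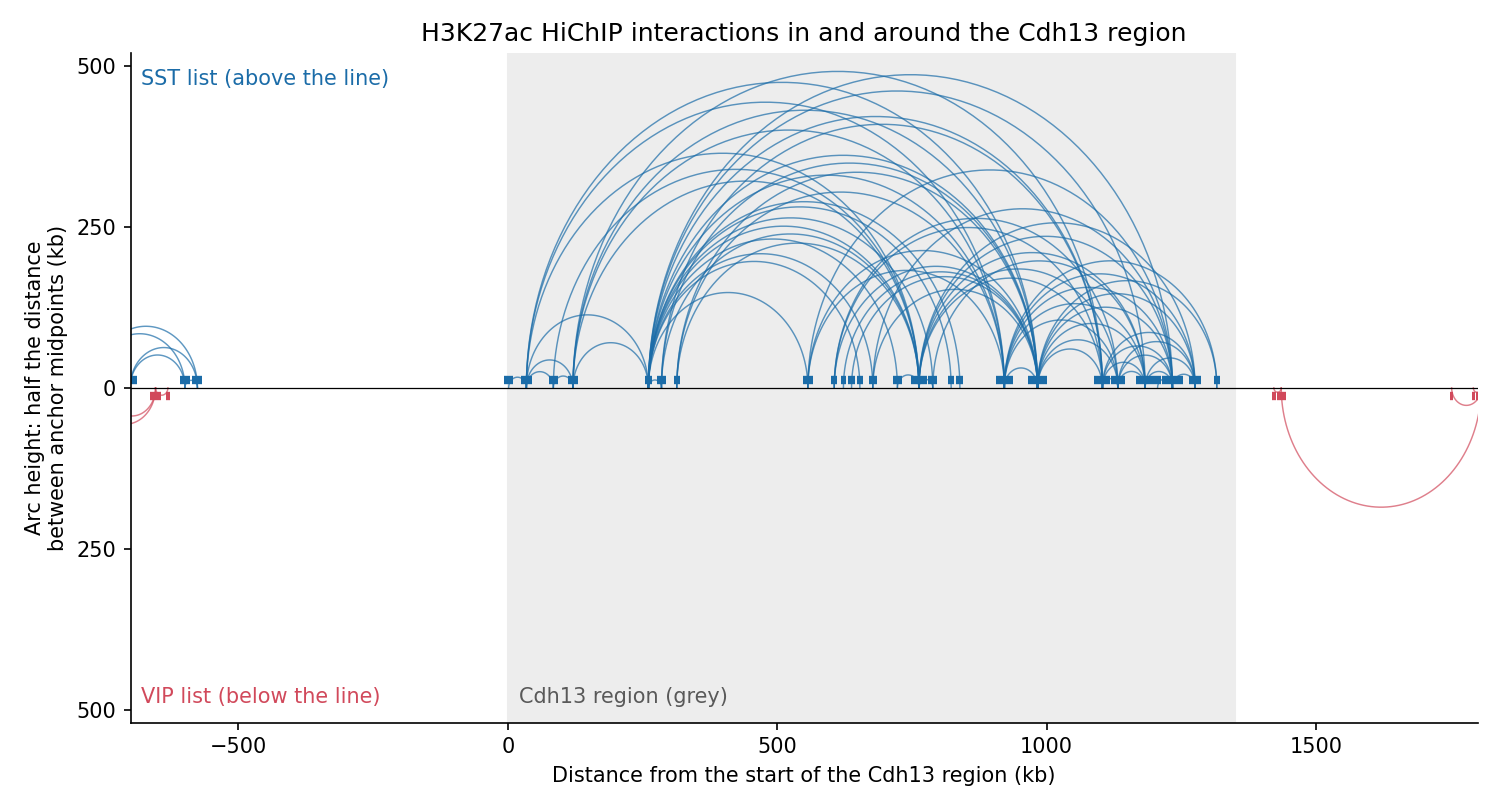
Interactions of the SST list (blue, above the line) and of the VIP list (red, below) in and around the Cdh13 region (grey), by distance from the start of the region in kb; each arc joins the midpoints of 2 anchors, its height is its radius (the axis gives it in kb) and the bars are anchors. All 75 arcs in the region are SST arcs, none of them leaves it, and no VIP anchor lies in it.

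The network had sharp limits in the SST list. Its lowest anchor, chr8:120543075-120560150, straddles the start of the region, beginning 6.93 kb before it, and its highest, chr8:121861100-121871253, ends 28.7 kb before the region's end. The nearest SST anchors outside it end at 119983142 and start at 122623223. That leaves 560 kb below the network and 752 kb above it without an SST anchor, so moving the limits of the region within these empty stretches would change no SST count. No SST interaction passed over the start or the end of the region. In the VIP list the nearest anchors end at 119922813 and start at 121968639. The VIP list was thus empty over 2.05 Mb, and its anchors resumed 97.4 kb above the last SST anchor of the network.

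None of the 75 members had a VIP counterpart with both anchors overlapping, and none of the 27 anchors overlapped a VIP anchor. Both counts follow from the lack of any VIP anchor in the region, by which it was chosen. Over the whole SST list, 78.6% of interactions had no VIP counterpart and 63.1% of anchors overlapped no VIP anchor. Most SST interactions of the list as a whole thus had no VIP counterpart. Among 303 windows of the region's length, 1.35 Mb, tiled over the genome and holding at least 20 interactions of both lists together, 22.1% had at least 4 times as many SST as VIP interactions per 1000.

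The anchors were wider than elsewhere and unequal in their number of interactions. Their width ranged from 9.24 to 38.2 kb with a median of 17.1 kb, against 11.8 kb for all other SST anchors, and together they covered 515 kb, or 38.8% of the stretch from the first anchor to the last. Numbered 1 to 27 by position, 7 anchors took part in 1 interaction, 2 in 2, 12 in 3 to 9 and 6 in 10 or more. Anchors with 3 or more interactions made up 66.7% (46.0 to 83.5%) of the region's anchors and 34.2% (33.0 to 35.4%) of the others. Those with 10 or more made up 22.2% (8.62 to 42.3%) and 4.35%. A region picked for its many interactions has busy anchors in part by that choice, so these shares are a description.

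The 5 busiest anchors took part in 60 of the 75 interactions, and 8 of the 10 possible pairs among them were linked. Over all pairs of the region's anchors within 1 Mb, 23.4% were linked. The 5 were picked for their many links in these same interactions, which raises both counts, so they are a description. Anchor 20, chr8:121515238-121551461, had the most interactions, 17, of which 11 led to lower and 6 to higher coordinates. Its partners were spread over the whole network, from anchor 2 to anchor 27. In the SST list as a whole, 46 of 5842 anchors, or 0.787%, had 17 or more interactions. Anchor 5, chr8:120805157-120817006, came next with 16. Anchor 15, chr8:121299060-121327246, had 13. Anchor 19, chr8:121455711-121487752, and anchor 25, chr8:121764645-121802825, had 11 each. The other anchors of the network had between 1 and 10.

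Anchor 5 was narrow for its number of interactions, and most of its contacts led to higher coordinates. At 11.8 kb it was the narrowest of the 68 anchors in the SST list with 16 or more interactions, whose median width was 39.1 kb. That cut-off is the count of anchor 5 itself. Among SST anchors outside the region with 10 or more interactions, the narrowest was 8.13 kb wide and the median was 35.35 kb. Width and number of interactions otherwise went together in the region, with a Spearman correlation of 0.76 across its 27 anchors and 0.62 across all 5842, a description across anchors that share interactions. Of the 16 interactions of anchor 5, 14 led to higher coordinates and 2, to anchors 2 and 4, to lower ones. Within 1 Mb on the higher side lay 20 anchors, and 14 of them were linked to it. The lower side held only 4 anchors, of which 2 were linked to anchor 5. The direction of its contacts thus follows in part from its place near the lower end of the network. Anchor 25, near the other end, had 10 of its 11 interactions toward lower coordinates. Of the 2 anchors within 100 kb of it 1 was linked to it, and of the 11 more than 500 kb away 9 were, up to anchor 25 at a distance of 973 kb. Yet neither anchor 7 nor anchors 9 to 11, which lie closer, were listed as its partners. For anchors 12, 17 and 18 the interaction with anchor 5 was the only one listed.

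Anchor 20 and anchor 5 were linked to each other over 722 kb and had 9 partners in common, 56.3% of those of anchor 5 and 52.9% of those of anchor 20. Anchors 10 and 11 were linked to anchor 20 alone. Anchors 19 and 20, only 61.6 kb apart, were linked and shared 10 partners, which is 90.9% of those of anchor 19 and 58.8% of those of anchor 20. The pairs among the 5 busiest anchors that were not linked were 15 with 19 and 15 with 20, at 159 and 220 kb. These unlinked pairs still shared 8 and 10 partners.

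**Figure D2:**
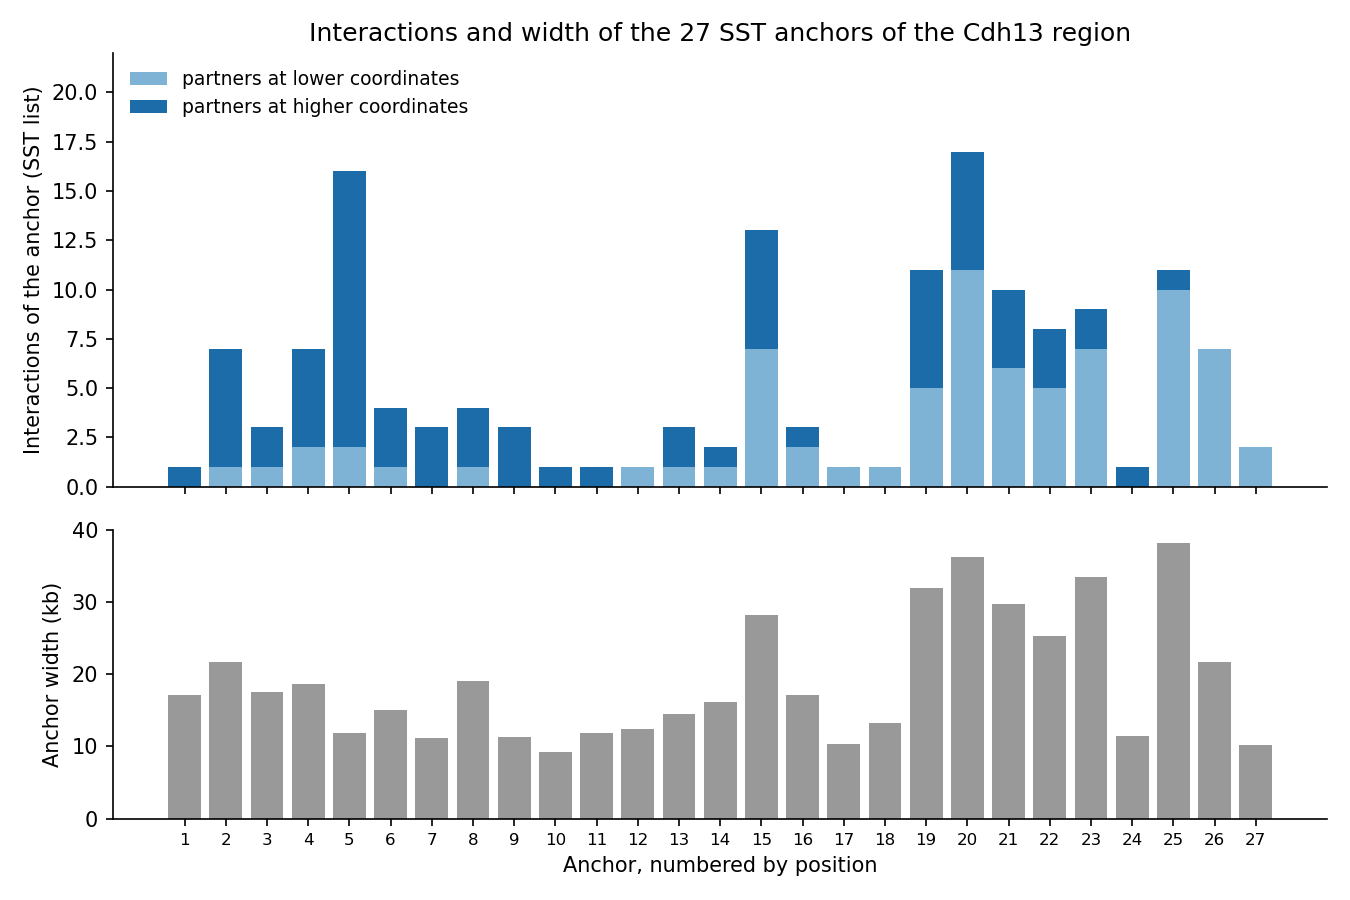
Interactions of each of the 27 SST anchors of the Cdh13 region in the SST list (upper panel, bars split by whether the partner lies at lower or higher coordinates) and anchor width in kb (lower panel), in order of position. Anchor 20 has 17 interactions at 36.2 kb, whereas anchor 5 has 16 at 11.8 kb, 14 of them toward higher coordinates.

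The 3 widest stretches between neighbouring anchors, 125, 228 and 87.5 kb long, divided the network into anchors 1 to 4, 5 to 7, 8 to 20 and 21 to 27, a division made after the positions were seen. Of the 75 contacts, 50 ran between these groups and 25 lay within them. A similar share of the 320 anchor pairs within 1 Mb also lay between groups, so this split shows no preference for contacts between groups. The groups at either end were linked most completely inside, with 4 of 6 pairs linked among anchors 1 to 4 and 11 of 21 pairs, 52.4% (29.8 to 74.3%), among anchors 21 to 27. Anchors 8 to 20 were linked little among themselves, at 9 of 78 pairs or 11.5% (5.41 to 20.8%). They were linked more often to anchors 5 to 7, at 15 of 39 pairs or 38.5% (23.4 to 55.4%), although those pairs lie 243 to 722 kb apart. Most of these links were those of anchor 5, to anchors 8 and 12 to 20. Within anchors 8 to 20, anchor 6 was linked only to 15 and 20, and anchor 7 only to 15, 19 and 20. The interval for pairs among anchors 8 to 20 lay below those for anchors 21 to 27 and for pairs with anchors 5 to 7. Such pairs share anchors, and the groups were cut after the positions were seen, so this is a description. The shares were not recomputed without anchor 5. The largest fully linked sets held 6 anchors, and there were 3 of them. Each comprised anchors 22, 23, 25 and 26 together with a pair drawn from anchors 15, 19, 20 and 21.

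Contacts also passed over the widest empty stretch, 228 kb without an SST anchor between anchors 7 and 8. Of the 75 members, 27 or 36% (25.2 to 47.9%) crossed it, 7 lay below it and 41 above it. A similar share of the 320 anchor pairs within 1 Mb lay across this stretch, so the number crossing shows no excess of such contacts. Anchor 5 alone accounted for 13 of the 27. Counted every 25 kb, the number of interactions spanning a point was 0 at both limits of the region and 10 across the stretch between anchors 4 and 5. It was 27 across the widest stretch and peaked at 34 at 650 kb and again from 700 to 750 kb from the start. The count did not return to 0 between the first and the last anchor, and no VIP interaction spanned any of the 55 points.

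**Figure D3:**
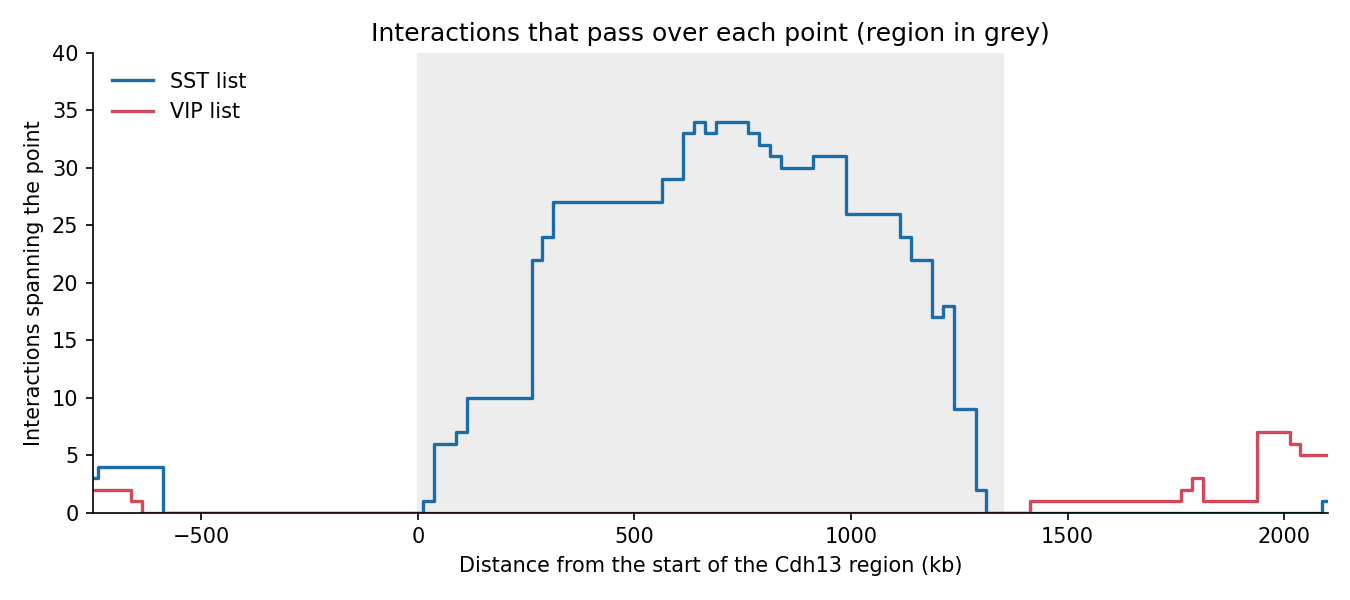
Number of SST (blue) and VIP (red) interactions whose anchor midpoints lie on opposite sides of each point, every 25 kb, by distance from the start of the Cdh13 region in kb. The SST count climbs from 0 at the start of the region to a peak of 34 and returns to 0 before its end, while the VIP count is 0 throughout the region.

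The contacts were long. Midpoints of linked anchors lay a median of 369 kb apart (quartiles 142 and 570 kb), against a median of 177 kb (51.9 and 394 kb) for all other SST interactions. When each anchor was left out in turn, the median stayed between 345 and 394 kb. The shortest member joined anchors 5 and 6 over 24.2 kb, and the longest joined anchor 4 to anchor 21 over 983 kb. Distances over 400 kb made up 44% (32.5 to 55.9%) of the members and 24.3% (23.3 to 25.2%) of the other SST interactions. A member passed over a median of 7 other SST anchors and at most 19, while other SST interactions passed over a median of 2. Neighbouring anchors were joined in 13 of the 26 possible cases, which is 17.3% (9.57 to 27.8%) of the members, whereas 28.8% (27.8 to 29.8%) of other SST interactions joined neighbours.

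The length of the contacts was examined against the anchor pairs available. Of the 320 pairs of anchors with midpoints within 1 Mb, 75 were linked, 23.4% (18.9 to 28.5%), against 20.5% (20.1 to 20.9%) of 40036 other such pairs in the SST list. Up to 50 kb, 8 of 23 pairs of the region were linked, 34.8% (16.4 to 57.3%), against 46.7% (45.2 to 48.2%) elsewhere. From 400 to 600 kb the values were 19.2% (11.2 to 29.7%) and 17.7% (16.8 to 18.7%). Beyond 600 kb, 18 of 77 pairs were linked, 23.4% (14.5 to 34.4%), against 7.45% (6.96 to 7.96%) of the pairs elsewhere. The intervals were apart in this class alone and overlapped in the other 5. Linked pairs of the region in this class share anchors, among them the 5 busiest. The share was not recomputed with an anchor left out. Over all other pairs the linked share was lower in the longest class than in any other, and in the region it was not; some windows with counts like those of the region had higher shares beyond 600 kb, as given with those windows.

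**Figure D4:**
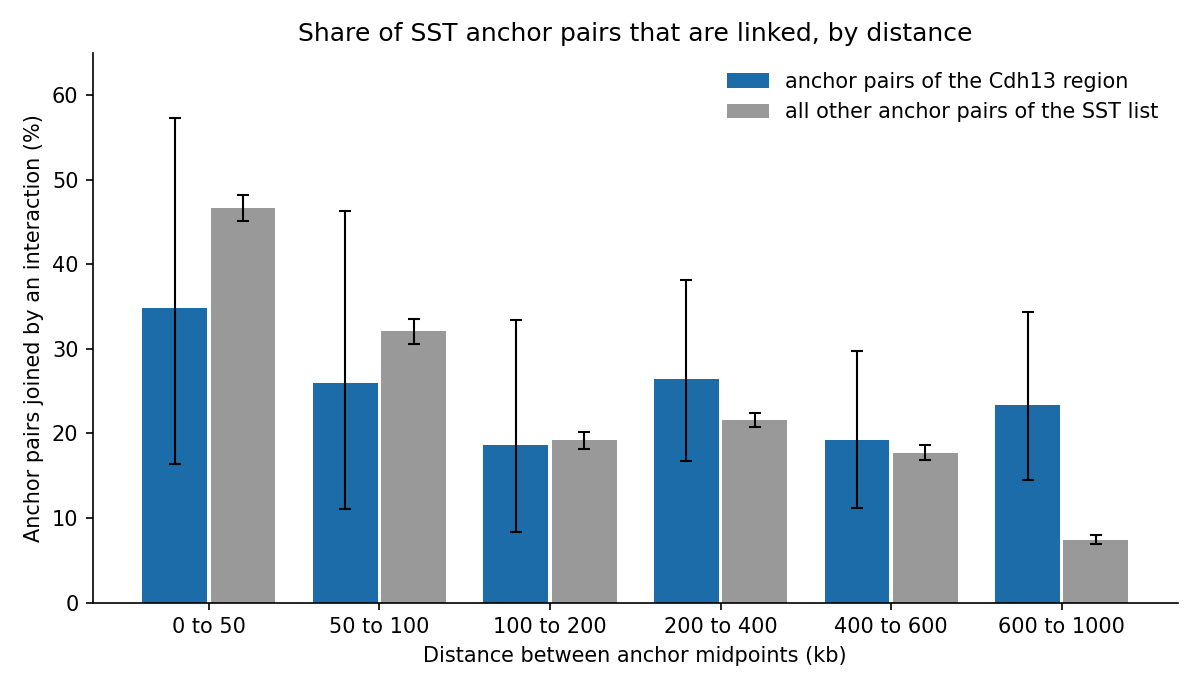
Percentage of pairs of SST anchors that are joined by a listed interaction, by distance between their midpoints in kb, for the Cdh13 region (blue) and for all other pairs (grey); error bars are exact 95% binomial intervals covering counting error only. The region stands at 23.4% beyond 600 kb where other pairs stand at 7.45%, and the intervals overlap in the shorter classes; 2 of the 3 windows most like the region in counts stand higher beyond 600 kb, at 31.9% and 39.5%.

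Among windows with a similar number of SST anchors, from 22 to 32, the region lay toward the upper end for long contacts and not for short ones. There were 21 such windows outside the region. The linked share beyond 600 kb had a median of 1.92% in these windows and was at or above that of the region in 3 of them, with a maximum of 39.5%. For pairs up to 100 kb the median was 38.2% against 30% in the region, and 13 of the 21 windows were at or above it. The median distance was at or above that of the region in 2 windows and the linked share over all pairs in 2. The busiest anchor of a window had 17 or more interactions in 13 of them. In 3 of the 21 windows, as in the region, every interaction had both anchors inside; the median over windows was 82.4%. Windows placed on a fixed grid can cut a network, and the limits of the region, set for the gene with its flanks, fall in stretches without an SST anchor or at its lowest anchor.

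The windows most like the region in their counts also lacked VIP interactions. By the distance between log2(SST + 1) and log2(VIP + 1), the nearest lay on chromosome 8 from 87750001 to 89100000 with 66 SST interactions, on chromosome 1 from 93150001 to 94500000 with 64 and on chromosome 17 from 10800001 to 12150000 with 100, all with 0 in VIP. They had fewer anchors than the 27 of the region, namely 20, 18 and 22. Their anchors were more completely linked, at 35.7%, 41.8% and 39.0% of pairs against 23.4%. Linked partners of an anchor were also linked to each other more often: the share of such connected triples that were closed was 0.62, 0.65 and 0.65 in these windows and 0.43 in the region. The median distance was 347 kb, 198 kb and 367 kb against 369 kb in the region. Beyond 600 kb, 15 of 47 pairs (31.9%) were linked in the chromosome 8 window and 15 of 38 (39.5%) in the chromosome 17 window, both above the 23.4% of the region, and the chromosome 1 window had no pair that far apart. Frequent links at this distance were thus not particular to the region. The network of the region was therefore the more loosely knit among these 4, with more anchors and fewer of the possible links. In all, 25 of the 301 windows outside the region had no VIP interaction, and 7 had 75 or more SST interactions.

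**Figure D5:**
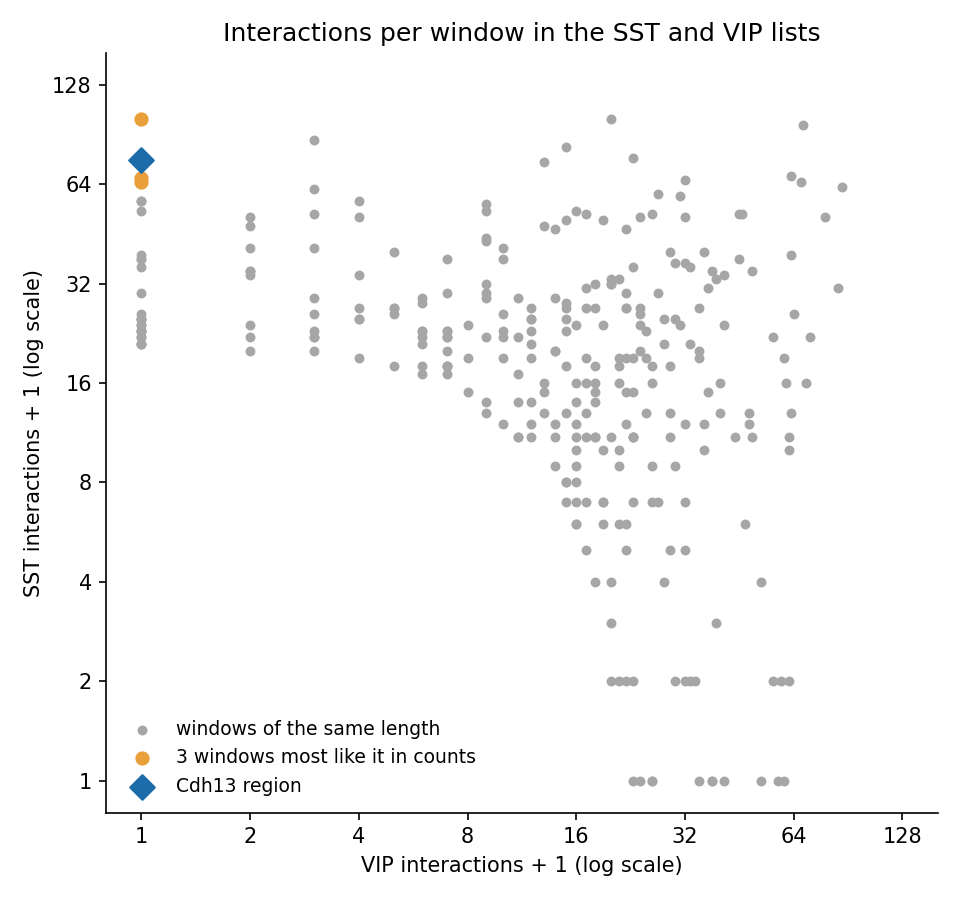
SST against VIP interactions (each plus 1, log scales) in windows of 1.35 Mb with at least 20 interactions of both lists together, with the Cdh13 region as a blue diamond and the 3 windows closest to it in counts in orange. The region, at 75 SST and 0 VIP interactions, sits on the left edge with 25 other windows that have no VIP interaction.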

How the data were processed

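Per the labels' protocols, chromatin of tagged nuclei was crosslinked, cut with MboI, enriched for H3K27ac and tagged with Tn5. The deposited lists hold 6 columns without a header, the chromosome, start and end of each paired anchor, and no count or score. HiC-Pro and mm9 are named in the submitters' processing notes; which caller and threshold made the lists, and whether replicates were pooled, is not stated there. Members were found by coordinates as printed in the files; a start may differ by 1 bp, as the counting base is not stated. An interaction was shared where both anchors overlapped by 1 bp. Distances run between anchor midpoints. Windows were tiled from position 1 of each chromosome. The anchors named were the 5 with the most members, any in VIP, the outermost, and those of the shortest and longest member, and the 3 most similar windows were named; anchors named for their links to these, or for fully linked sets, were picked after the links were seen. The region, lists and measures were chosen with earlier results of these data known. With 1 list per cell type no test was possible. The steps were tested on simulated lists and run with networkx 3.6.1, scipy 1.17.1, pandas 2.3.3, numpy 2.4.6 and matplotlib 3.10.9 under Python 3.11.15.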

Additional observations from a re-analysis of the deposited data

How the results depend on the processing

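The direction of the SST excess could not change, as the region was chosen for it and the VIP count was 0, or 2 in the widened region. The settings therefore show only how its size varied. As a lower bound with the SST count taken as exact, the excess was 6.35-fold for interactions of up to 200 kb (23 members) and 15.8-fold without anchor 20. The bound was 15.0-fold with anchors within 5 kb merged (55 members between 20 anchors) and 27.03-fold when scaled by the rest of the chromosome. Widening the region by 100 kb on each side took in 2 VIP interactions and gave a ratio of 30.5 (8.15 to 256); it exceeds the bound because 2 is below the limit of 3 counts. Limiting distances to 200 kb gave a median of 61.6 kb by construction. It left at most 5 interactions per anchor, and its use for that count was added after seeing the data. Merging anchors raised the linked share to 32.2% and left anchor 20 with 14 interactions and anchor 5 with 13. The other 17 of 25 settings stayed within the counting interval of the main value or, where it had none, moved by less than 1.5 times. Those on overlap with VIP could not move, as the nearest VIP anchor lies 97.4 kb from the network. The points every 10 kb, the linked share without anchor 20 and the identical anchors for the anchor overlap were also added after seeing the data. No paired analysis was possible because the analysed lists, 1 for SST and 1 for VIP, carry no values by replicate; leaving out replicates was not possible either. Stricter calling could not be tried, as the lists hold no score.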

Other observations

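Stretches without a VIP anchor were common, and most held few SST interactions. The 2.05 Mb stretch around the Cdh13 region contained 76 SST interactions, the 75 members and 1 below the region. Of 605 VIP-free stretches of at least 500 kb between neighbouring VIP anchors, it ranked 2 by SST interactions, after a 14.1 Mb stretch on chromosome 17 with 94, and it was the shortest of the leading 5, which otherwise measured 5.95 to 14.1 Mb. Among the 278 stretches at least as long as it, the median was 1 SST interaction, 100 held none and 30 held 20 or more. The region was chosen for this kind of contrast, so the rank is a description.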
